A study of Rattus norvegicus with 2 samples.

Results

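The genes described here encode the tissue isoforms of 5 subunits of cytochrome c oxidase, complex IV of the mitochondrial respiratory chain: Cox4i1 and Cox4i2 for subunit IV, Cox6a1 and Cox6a2 for VIa, Cox6b1 and Cox6b2 for VIb, Cox7a1 and Cox7a2 for VIIa, and Cox8a and Cox8b for VIII. Members were found by the gene symbol of each probe, older symbols included. The symbol came from RefSeq where the probe's accession matched, and otherwise from the platform annotation. Of the 10 genes, 8 had a named probe, with 9 probes among the 40012 on the array and 8 of the 15613 genes that could be named. Cox6b1 and Cox7a1 had no probe of that name and were not analysed here, so both forms were measured for 3 of the 5 subunits.

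Uncultured rat heart cells, samples 1 and 2, were each hybridised on a 2-colour Agilent array, with the heart RNA in Cy3 and a common pool called mix1 in Cy5. Mix1 joined RNA of rat bone marrow cells and of rat primary ear fibroblasts, both grown in serum-containing medium. No treatment was given, and the labels state no strain, age or animal, so the spread of the members between the 2 heart samples may be technical. The 2 heart samples were not alike in all genes: of 10 lung epithelium markers, 8 were at least 2-fold higher on array 2. Mix1 is 1 control RNA whose own spread does not enter the tests, and tissue and culture cannot be told apart between the channels. Each value is the log2 of heart over mix1, and a positive value is higher in heart. The log base and this direction are likely and not stated: 9 of 9 cardiac muscle markers lay between 3.83 and 7.16 on array 1 and between 3.87 and 7.30 on array 2, from Nppa and Myh6 at the lower end to Pln and Mybpc3 at the upper, which served as the check of orientation and is no finding.

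Cytochrome c oxidase passes electrons from cytochrome c to oxygen and pumps protons across the inner mitochondrial membrane. Its catalytic core is encoded in mitochondrial DNA, and nuclear genes supply the surrounding subunits that tune its activity and stability. Several of these exist as a ubiquitous form, often called the liver form, and a form restricted to certain tissues. Cox6a2, Cox7a1 and Cox8b are the forms of heart and skeletal muscle, and Cox7a1 and Cox8b are also known from brown fat. Cox4i2 is best known from lung and from vascular pericytes, and Cox6b2 from testis, so these 2 are restricted forms without being muscle forms.

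Stretches around the start sites of 4 measured members show how the windows of muscle forms and ubiquitous forms read. Each holds 300 bases, 250 before and 50 after the start in RefSeq on the GRCr8 build, 5′ to 3′ along the gene's own strand, and the table had an entry for 8 of the 10 members, without Cox4i2 and Cox6a1. Capitals mark a match on either strand to one of the motifs searched: the E-box CANNTG, the GABP or ETS motif CCGGAAG, the SP1 motif GGGCGG, the estrogen-related receptor (ERR) motif AAGGTCA, the TATA box TATAAA, and the consensus motifs of NRF1 and of the muscle factor MEF2. The muscle forms lie at chr1:205408224-205408523 on the minus strand for Cox8b and chr1:192219667-192219966 on the minus strand for Cox6a2. The ubiquitous forms lie at chr1:213833574-213833873 on the minus strand for Cox8a and chr8:89601100-89601399 on the minus strand for Cox7a2.
Cox8b: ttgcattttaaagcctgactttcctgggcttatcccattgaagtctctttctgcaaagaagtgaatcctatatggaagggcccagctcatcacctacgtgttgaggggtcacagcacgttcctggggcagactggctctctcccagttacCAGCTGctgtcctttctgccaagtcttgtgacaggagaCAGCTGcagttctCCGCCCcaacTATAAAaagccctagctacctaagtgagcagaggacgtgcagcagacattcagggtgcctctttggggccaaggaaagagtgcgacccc
Cox6a2: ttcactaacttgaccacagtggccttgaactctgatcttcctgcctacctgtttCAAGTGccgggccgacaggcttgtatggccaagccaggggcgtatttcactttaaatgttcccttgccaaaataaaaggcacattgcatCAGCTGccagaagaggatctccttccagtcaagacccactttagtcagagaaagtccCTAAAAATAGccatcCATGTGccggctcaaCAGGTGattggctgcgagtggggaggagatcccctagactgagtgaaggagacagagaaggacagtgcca
Cox8a: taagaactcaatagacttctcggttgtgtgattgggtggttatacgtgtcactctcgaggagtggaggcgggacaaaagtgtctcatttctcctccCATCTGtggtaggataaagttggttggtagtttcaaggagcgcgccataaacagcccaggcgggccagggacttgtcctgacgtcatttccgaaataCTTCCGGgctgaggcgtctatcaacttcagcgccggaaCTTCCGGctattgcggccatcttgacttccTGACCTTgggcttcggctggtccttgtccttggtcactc
Cox7a2: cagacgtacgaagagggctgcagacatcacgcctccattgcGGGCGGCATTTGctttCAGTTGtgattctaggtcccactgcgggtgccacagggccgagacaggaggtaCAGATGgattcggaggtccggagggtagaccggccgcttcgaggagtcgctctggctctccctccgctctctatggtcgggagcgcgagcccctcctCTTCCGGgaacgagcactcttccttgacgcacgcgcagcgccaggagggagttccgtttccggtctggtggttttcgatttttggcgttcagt

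The GABP or ETS motif, which in its reverse reading is CTTCCGG, was found in the windows of 3 of the 4 ubiquitous forms with a window: 2 matches for Cox4i1, 1 for Cox7a2 and 2 for Cox8a. The window of the ubiquitous Cox6b1, which had no named probe, held no match to any of the motifs. Whether that window, or any other, lies at the start site in use was not examined. The GABP or ETS motif was found in 0 of the 4 restricted forms Cox6a2, Cox6b2, Cox7a1 and Cox8b, and in 8.75% of all 33469 windows. The MEF2 consensus had 1 match, CTAAAAATAG in Cox6a2, and is in 3.29% of all windows. The TATA box had 1 match, in Cox8b (14.2% of all windows). The ERR motif had 1, in Cox8a (4.61%), and NRF1 had none among these 8 (2.59%). The SP1 motif was found in Cox4i1, Cox7a2 and Cox8b (33.1% of all windows). An E-box was present in 7 of the 8, all but Cox6b1, and in 72.1% of all windows, and in Cox7a2 1 E-box directly adjoins the SP1 match. The number of CpG dinucleotides was 38 in Cox4i1, 27 in Cox7a2, 16 in Cox8a and 6 in Cox6b1 among the ubiquitous forms. It was 5 in Cox6a2, 5 in Cox8b, 6 in Cox7a1 and 10 in Cox6b2, with a median of 7 over all windows. These are matches of letters and do not show binding.

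Of the 8 measured members, 6 were higher in heart, 1 was lower and 1 did not pass limma's moderated test at an adjusted p of 0.05. Over all 15613 genes tested, 72.9% passed, with 31.4% of all genes higher in heart and 41.5% lower, so that a call alone sets a member little apart and the sizes are given. The median of the 8 members was 1.81 against -0.09 over all genes, and 5 were called and at least 2-fold higher in heart, as were 16.9% of all genes. The arrays differed by 0.01 to 0.05 for each member, less than the median difference of 0.08 over genes. In a bulk sample such as this, fewer cells of a type and less RNA per cell cannot be told apart. Whether a probe also detects a related form or a pseudogene was not examined.

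**Figure D1:**
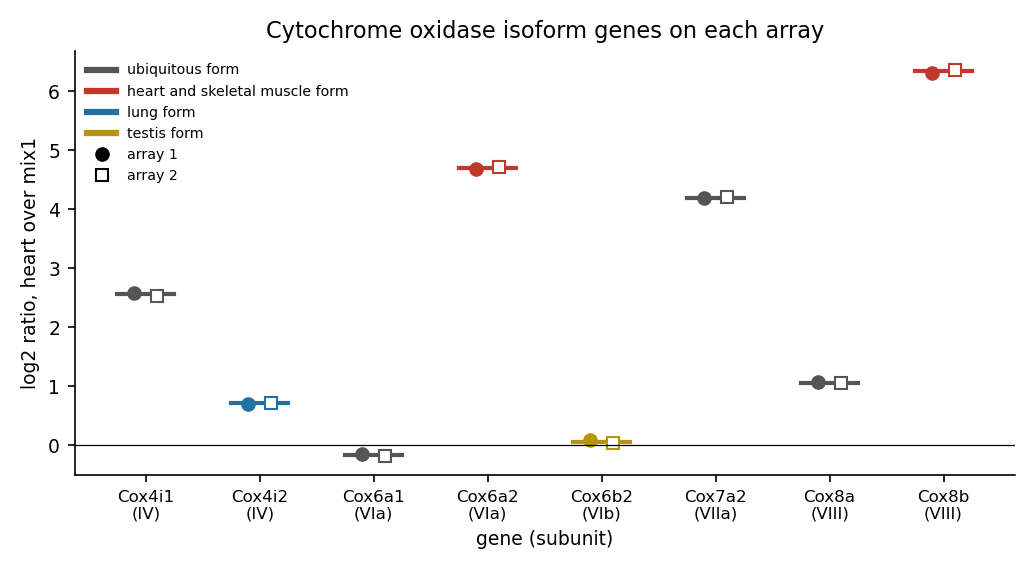
Log2 ratio of heart over mix1 for the 8 measured isoform genes, with array 1 as a filled circle, array 2 as an open square and the mean as a line, coloured by the form. The muscle forms Cox8b and Cox6a2 had means of 6.33 and 4.69, and Cox6a1 lay just below 0 at -0.16.

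The heart and skeletal muscle forms had the highest ratios of the family. Cox8b, the muscle form of the small membrane subunit VIII, was at 6.31 on array 1 and 6.36 on array 2. Its mean of 6.33 ± 0.03 (SD, n = 2) is an 80.6-fold difference (limma adjusted p 0.0012) and ranked 55 from the top among 15613 genes. Cox6a2, the muscle form of subunit VIa, which takes part in the response of the enzyme to adenine nucleotides, was at 4.67 and 4.71. Its mean was 4.69 ± 0.03 (SD, n = 2), a 25.9-fold difference (limma adjusted p 0.0012), at rank 236. Both arrays thus gave high ratios for both genes. Whether either gene gave signal above background in mix1 is unknown, and the sizes of these folds depend on it. Cox6a2 was the only member with more than 1 probe, and its 2 probes differed in size: one read 4.31 and 4.33, the other 5.04 and 5.10. The gap between these probes was larger than that between the arrays.

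The ubiquitous forms differed widely among themselves. Their 4 measured members spanned 4.36 log2 units, from Cox6a1 at the bottom to Cox7a2 at the top, whereas no member differed by more than 0.05 between arrays. Cox7a2, the ubiquitous form of subunit VIIa, was at 4.19 and 4.21, a mean of 4.20 ± 0.02 (SD, n = 2) or 18.3-fold (limma adjusted p 0.0012). Cox4i1, the ubiquitous form of subunit IV and a common loading marker for mitochondria, was at 2.59 and 2.53. Its mean of 2.56 ± 0.04 (SD, n = 2) is a 5.90-fold difference (limma adjusted p 0.00123). Cox8a, the ubiquitous form of subunit VIII, was higher in heart by much less, at 1.07 and 1.06, with a mean of 1.06 ± 0.01 (SD, n = 2), or 2.09-fold (limma adjusted p 0.00211). Cox6a1, the ubiquitous form of subunit VIa, was the 1 member that was lower in heart, at -0.15 and -0.17. That is a mean of -0.16 ± 0.02 (SD, n = 2), or 1.12-fold (limma adjusted p 0.0434). Cox6a1 was not called after centring each array on its median (-0.10, limma adjusted p 0.69), but p-values after centring are not comparable with the others, as given below. Without a dye swap, a dye bias of the probe cannot be told apart from the ratio of any member, and this weighs most on ratios as small as that of Cox6a1. Whether the 1 probe of Cox6a1 gave signal above background in either channel is unknown.

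The forms of lung and testis had small ratios. Cox4i2, the form of subunit IV known from lung, was at 0.71 on array 1 and 0.72 on array 2. Its mean of 0.71 ± 0.01 (SD, n = 2) is a 1.64-fold difference toward heart (limma adjusted p 0.00348), and 21.5% of all genes had a ratio as high or higher. A dye bias of its probe cannot be told apart from this ratio either. Cox6b2, the testis form of subunit VIb, was at 0.09 and 0.04, a mean of 0.06 ± 0.03 (SD, n = 2) that did not pass (limma adjusted p 0.257). The array medians over all probes were 0.01 and -0.14, and 11.5% of probes lay within 0.1 of both. Of 9 testis germ cell markers, the protamine genes Prm1 (0.49) and Prm2 (-2.52) were higher and lower and 7 did not pass, and 4 lay within 0.1 of both array medians. Over all genes, 72.9% passed. No spot intensity was used here, so whether Cox6b2 gave signal above background in either channel is unknown.

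Setting the 2 forms of a subunit against each other within an array removes any shift of the whole array and gives the change of their balance between heart and mix1. For subunit VIII, Cox8b exceeded Cox8a by 5.24 on array 1 and 5.30 on array 2. The mean difference was 5.27 ± 0.04 (SD, n = 2), so that the balance of muscle to ubiquitous form differed 38.6-fold between heart and mix1. For subunit VIa, Cox6a2 exceeded Cox6a1 by 4.82 and 4.89, a mean of 4.86 ± 0.04 (SD, n = 2) or 28.9-fold. By the single probes of Cox6a2 this difference was 4.48 and 5.23. No spot intensity was used. Whether Cox8b and Cox6a2 gave signal above background in mix1, and Cox6a1 in either channel, is unknown, and the sizes of these folds depend on it. Subunit IV ran the other way, with the lung form Cox4i2 below the ubiquitous Cox4i1 by -1.88 and -1.81, a mean difference of -1.85 ± 0.05 (SD, n = 2) or 3.59-fold toward the ubiquitous form. Each of the 3 differences was many times its spread between arrays. An exact sign-flip permutation test over 2 arrays cannot go below a two-sided p of 0.5, which each of the 3 reached, so the test allows no call. The ratios say nothing of which form is the more abundant within heart, since levels of different probes were not compared. For subunits VIb and VIIa only Cox6b2 and Cox7a2 had a probe, and no balance could be computed.

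**Figure D2:**
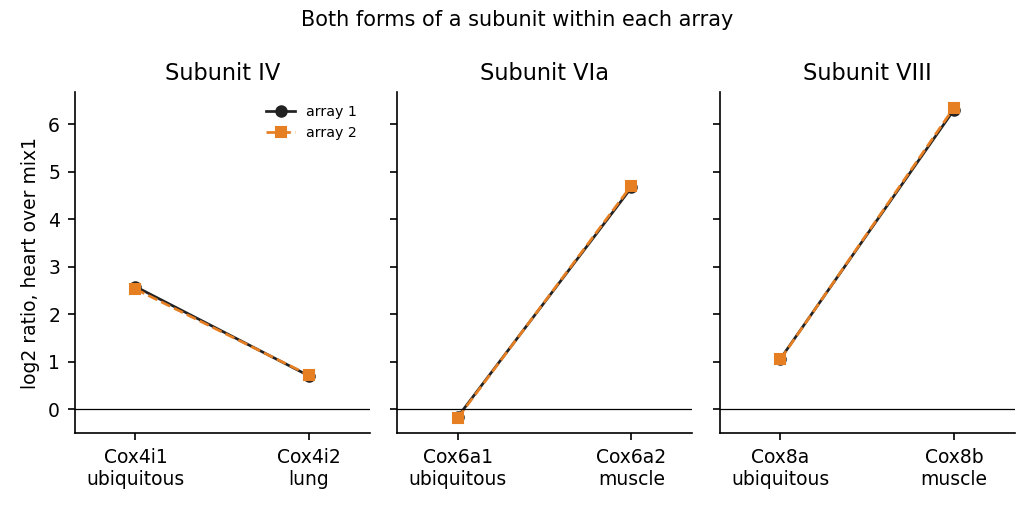
Log2 ratio of heart over mix1 for the ubiquitous form (left of each panel) and the restricted form (right) of 3 subunits, joined within array 1 (solid) and array 2 (dashed). The lines climb by 4.86 for subunit VIa and 5.27 for subunit VIII and descend for subunit IV, and the arrays nearly coincide.

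The isoform genes were set beside the other nuclear subunits of complex IV, which are not among the members. Cox7b2, a testis-enriched relative of Cox7b, is given further below. All 6 of these, Cox5a, Cox5b, Cox6c, Cox7b, Cox7c and Ndufa4, were higher in heart, with a median of 3.63, while 31.4% of all genes were higher. The highest were Cox7b at 4.40 on array 1 and 4.37 on array 2 and Cox7c at 3.97 and 3.93. The lowest were Cox6c at 2.89 and 2.92 and Cox5b at 3.31 and 3.36. Cox8b and Cox6a2 lay above all 6, and Cox7a2 lay above 5 of them. Cox4i1, Cox8a and Cox6a1 lay below all 6, as did Cox4i2 and Cox6b2.

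The nuclear subunits of complexes I, II, III and V gave a wider scale for the same comparison. Of 58 measured, 57 were higher in heart, 0 were lower and 1, Uqcrq, did not pass (0.42 and 0.04), with a median of 2.83. The highest were Ndufab1, the mitochondrial acyl carrier protein that is also a subunit of complex I, at 4.51, and the complex II anchor Sdhd at 4.03. The lowest that passed were the ATP synthase genes Atp5mc2 at 1.56 and Atp5f1d at 1.73. Cox8b lay 3.50 and Cox6a2 1.86 above the median of this list, and both were higher than all 58. Cox7a2 was higher than 57 of 58, and Cox4i1 was higher than 17 and lower than 41. Cox8a was lower than 57 of 58, at 1.77 below the median of the list, and Cox6a1 was lower than all 58, at 2.99 below it. The ubiquitous forms of subunits VIa and VIII, whose muscle forms were the highest, thus lay at the lower end of the respiratory chain genes, and Cox4i1 lay within their range. These places describe 2 arrays and carry no test, and the low place of Cox6a1 rests on 1 probe whose signal above background is unknown.

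**Figure D3:**
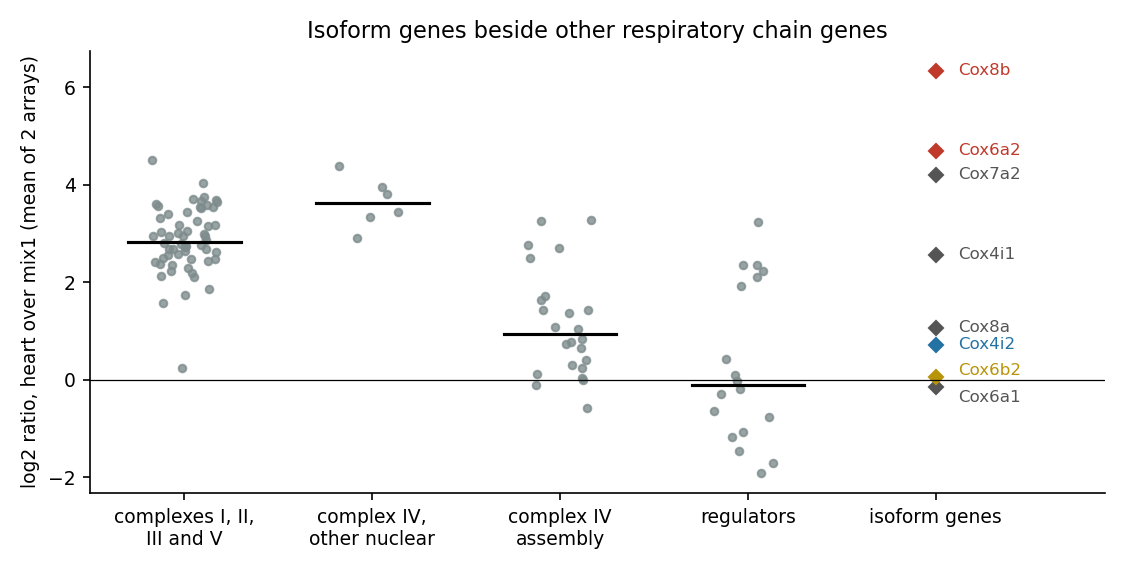
Mean log2 ratio of heart over mix1 over 2 arrays for single genes (dots, spread sideways for legibility) of 4 lists, with the median of each list as a bar, and for the isoform genes as diamonds. Cox8b and Cox6a2 lie above every subunit of complexes I, II, III and V, and Cox6a1 lies below them all.

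The 3 further isoforms and paralogs of complex IV subunits that were measured did not pass the test. Cox7a2l, a relative of Cox7a2 that takes part in joining complexes III and IV into supercomplexes, was at -0.20 and 0.56. The testis-enriched Cox7b2 (0.06 and -0.16) and Cox8c (0.02 and -0.14) lay close to the array medians. The ratio of 4.20 for Cox7a2 therefore had no counterpart in Cox7a2l, whose arrays fell on opposite sides of 0.

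Most genes that build the enzyme were higher in heart. Of 24 measured assembly and biogenesis genes, 19 were higher, 1 was lower and 4 did not pass, with a median of 0.94 and a range that reached into that of the subunits. Over all genes, 31.4% were higher and 41.5% lower. Cox20, a chaperone of the mitochondrially encoded subunit II, was at 3.27 on both arrays, and Cox17, which carries copper to the enzyme, was at 3.26 and 3.23. The lower gene was Coa7 at -0.56 and -0.62, and the smallest called ratio among the higher genes was that of Fdx2, at 0.24 for the mean. Of the carriers that bring electrons to the oxidase, the somatic cytochrome c gene Cycs was at 3.57 and 3.62 and Cyc1 of complex III at 2.44 on both arrays. Hccs, the lyase that attaches heme to these cytochromes, was at 1.58 and 1.54. The testis cytochrome c gene Cyct, at 0.24 and 0.87, passed after centring alone (limma adjusted p 0.002, against 0.136 to 0.146 in the other fits). Its mean moved only from 0.55 to 0.62, and p-values after centring are not comparable with the others, as given below.

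Genes known to regulate these isoform genes or complex IV went both ways. Of 18 measured, 7 were higher in heart, 8 were lower and 3 did not pass, with a median of -0.11. The 3 were Sp1 at -0.01 on array 1 and -0.04 on array 2, Gabpb1 at -0.12 and -0.48, and Cxxc5 at 0.07 and 0.11. Ppargc1a, the coactivator of mitochondrial biogenesis, was at 4.28 on array 1 and 2.20 on array 2, so the arrays differed widely in size while both were positive. Its limma adjusted p of 0.0477 lay close to the threshold of 0.05. Its relative Ppargc1b was at 2.38 and 2.34, the nuclear receptor gene Esrra, a member of the ERR group, at 2.34 and 2.38, and the muscle factor gene Mef2a at 1.86 and 1.97. Its relative Mef2d was lower in heart, at -0.52 and -0.78. Lower in heart were Hif1a, the hypoxia-inducible factor, at -1.93 and -1.91, and Pprc1, a further relative of these coactivators, at -1.75 and -1.67. Gabpa, which encodes the DNA-binding subunit of GABP, was also lower, at -1.17 and -0.97, as was Nrf1 at -1.26 and -1.11. Rbpj, a factor named for the control of Cox4i2, was at -1.55 and -1.40. Mef2a, Mef2d, Esrra, Gabpa, Nrf1 and Rbpj are named here after their values were seen, for their link to the motifs or to Cox4i2. The same holds for the 3 that did not pass. These are RNA ratios of the regulators and were not tested against those of the isoform genes.

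Markers of other tissues in which these isoforms occur were read beside them, where 31.4% of all genes were higher in heart and 41.5% lower. The heart arrays differed in lung epithelium markers: of 10, 8 were at least 2-fold higher on array 2. Their range was -1.21 to 0.84 on array 1 and 0.18 to 6.68 on array 2, and the sum of their log2 ratios was 0.14 against 31.1. The surfactant protein gene Sftpc, named after its values were seen, was at 0.84 and 6.68, and the 1 marker that passed over both arrays was Ager at 0.81 and 1.08. Cox4i2, the lung form, differed by 0.02 between the same arrays, and its ratio of 0.71 on array 1 alone is as large as with array 2. Of 7 pericyte and mural markers, 5 were higher in heart and 2 lower, with sums of 23.6 and 23.7. They ranged from Higd1b at 6.04 and Rgs5 at 5.42 to Notch3 at -0.28 and Pdgfrb, which fibroblasts also express, at -1.85. The part of lung tissue and the part of pericytes in the ratio of Cox4i2 were not tested.

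**Figure D4:**
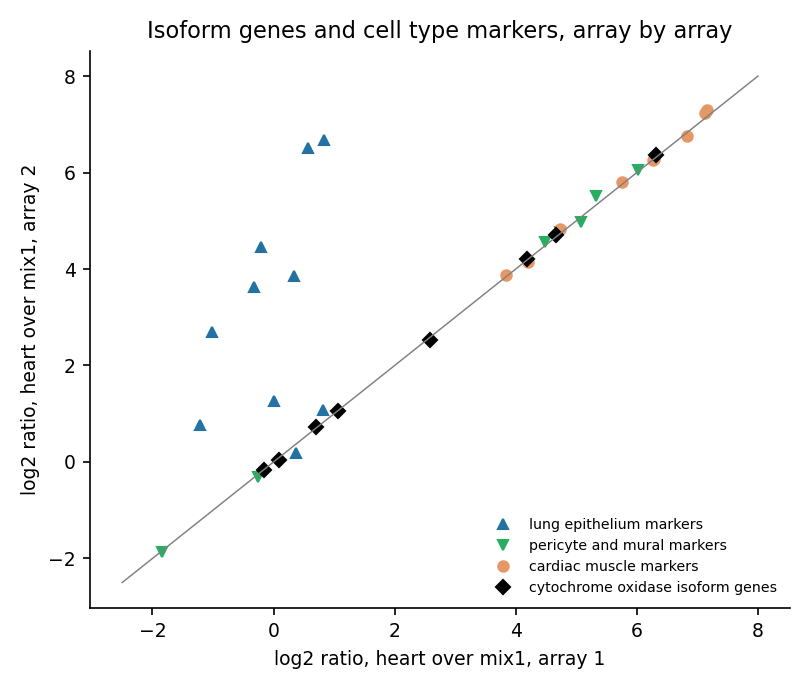
Log2 ratio of heart over mix1 on array 1 (horizontal) against array 2 (vertical) for the isoform genes (diamonds) and for markers of lung epithelium, of pericytes and mural cells, and of cardiac muscle; the line marks equal values. The isoform genes lie on the line, with differences of at most 0.05, and 8 of 10 lung markers lie at least 1 log2 unit above it.

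Skeletal muscle and brown fat share muscle isoforms with heart. The counts of their markers stand beside 31.4% of all genes higher in heart and 41.5% lower. Of 8 skeletal muscle markers, 2 were higher, 2 lower and 4 did not pass, with sums of -14.2 and -13.6. The higher ones were Tnni2 at 1.49 and 1.51 on the arrays and Tnnt3 at a mean of 0.34, and the lower ones Myh1 at -9.40 and Myh2 at -4.73, both of fast skeletal myosin. Another fast myosin gene, Myh4, did not pass (0.07 and -0.13). Of 6 brown fat markers, 3 were higher and 3 lower, with sums of 6.96 and 7.52. Cidea, a lipid droplet protein, was at 5.82 and Ppara at 1.92, while Ucp1, the uncoupling protein that defines brown fat, was lower in heart at -0.87 and Zic1 at -0.72. The part of these tissues in the ratios of Cox6a2 and Cox8b was not tested.

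Measured protein-coding genes next to the members in the RefSeq gene order had ratios of either sign. Emc8, next to Cox4i1, was at -0.51 on both arrays, while Cox4i1 was at 2.56. Psmd13, a proteasome subunit gene next to Cox8b, was at -1.28, and Otub1 and Naa40 on either side of Cox8a were at -0.85 and -0.38. Tmem30a, next to Cox7a2, was at -1.52. Triap1, next to Cox6a1, was higher in heart at 1.27, where Cox6a1 itself was at -0.16. Id1, next to Cox4i2, was at 1.21. The integrin gene Itgad, next to Cox6a2, was at 0.21. Msi1, on the other side of Cox6a1, was at 0.67, and 3 neighbours did not pass: Bcl2l1 next to Cox4i2 (0.03), Kmt5c next to Cox6b2 (-0.32) and Nlrp6 next to Cox8b (-0.62).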

How the data were processed

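The deposited table held 1 value per probe and array, taken as log2 ratios. The authors used Agilent Feature Extraction, per the submitters' processing notes, and version, background correction and dye handling are not stated there. The base was inferred: read as log2, the lowest value of -11.10 is 2191-fold, while as log10 it would exceed what a scanner resolves; natural logs were tried. Array medians were 0.01 and -0.14, so columns were not centred on them. The accession of 16978 probes matched a gene in RefSeq GRCr8, whose symbol was used, which updated old symbols. Other probes took the symbol of the platform annotation where it gave one. In all, 20417 probes were named and 19595 were left unnamed. Probes of a gene were averaged, giving 15613 genes.

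An intercept was fitted to all genes with limma 3.58.1 in R 4.3.3 (lmFit, eBayes; 1 residual degree of freedom before moderation), two-sided, with Benjamini-Hochberg adjustment. The code was tested on simulated data. The number of arrays limits the precision. Every member was named, and of other lists the 2 highest and 2 lowest called genes, all of lists with up to 5, and others as said. Neighbours and promoter motifs were added after values were seen. The members and lists were chosen with earlier results of these data known.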

Additional observations from a re-analysis of the deposited data

How the results depend on the processing

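Read as natural logs, the mean differences became 7.61 in place of 5.27 for Cox8b minus Cox8a, 7.005 for Cox6a2 minus Cox6a1 and -2.66 for Cox4i2 minus Cox4i1, by construction of the scale. Taking for each gene the probe whose arrays lay closest, Cox6a2 minus Cox6a1 was 4.48 and 2 assembly genes were lower in place of 1; with the symbols of the annotation, 0 were, since fewer genes were found. After centring, 0 members were lower in place of 1, since Cox6a1 lost its call. In that fit the limma adjusted p of Cox8b fell to 2.1e-242 from 2 arrays, against 0.0012 in the main fit. The p-values after centring are therefore not comparable with those of the other fits. The other 6 called members kept their direction and call under natural logs, centring, both other probe choices, the annotation's symbols and robust moderation. Over the same settings 6 to 8 regulators were higher, against 7 in the main fit, with 6 under robust moderation. Between 7 and 11 were lower, against 8, with 11 for the probe whose arrays lay closest. Leaving out 1 array, a value with no test, gave 5.24 to 5.30, 4.82 to 4.89 and -1.88 to -1.81 for the 3 differences; counts of calls cannot be had from 1 array. No paired analysis was possible because all samples form 1 group. Signal over background is unknown.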
